A study of Mus musculus with 6 samples.

Results

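The cells described here are leukocytes other than macrophages from the soleus muscle of old mice, compared between hindlimb unloading (HU) and 4 days of reloading (4-day reload) after it. They were sorted from muscle as CD45+ DAPI− cells, which are living cells that carry the pan-leukocyte protein CD45, and their RNA was read cell by cell on the 10x Genomics platform. A barcode, which stands for 1 droplet, was kept if it held at least 200 genes, at most 10% of its unique molecular identifiers (UMIs, each a counted RNA molecule) from mitochondrial genes, and at most 1 UMI over C1qa, C1qb and C1qc, the complement genes that mark tissue macrophages. This left 2306 of the 5072 barcodes of the 2 old libraries, out of 15467 barcodes in the whole series. There were 1189 kept barcodes after HU and 1117 at 4-day reload.

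Both groups were male C57BL/6 mice aged 20 to 22 months that had spent 14 days unloaded, and the reload group then walked freely for 4 days. The solei of 10 mice were pooled in each group, and each pool gave 1 library. The labels give both libraries the same sequencing run but different library numbers, 1 for HU and 1 for reload, which cannot be told apart from the comparison. With 1 library a group there was no replicate, so no difference between the groups was tested, and the 95% intervals given in parentheses cover counting error only. They do not cover the spread between mice, between pools or between libraries. The intervals of gene ratios treat UMIs as independent counts, so they do not cover the spread between cells of a class either.

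Skeletal muscle that is loaded again after disuse is damaged and then rebuilt, and blood leukocytes enter it in waves. Neutrophils arrive early and carry granules of antimicrobial proteins. Classical monocytes, which bear the chemokine receptor CCR2 and the surface protein Ly6C, follow them and can become macrophages, whereas non-classical monocytes patrol the vessel wall. Conventional dendritic cells take up antigen and show it to T cells, cDC1 to CD8 T cells above all and cDC2 to CD4 T cells. Gamma delta T cells are resident in many tissues and make interleukin-17. Interferons are cytokines that switch on a wide set of antiviral and antigen presentation genes in most cells.

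Kept barcodes held more UMIs in the reload library, with a median of 4106 UMIs and 1340 genes, against 2073 UMIs and 831 genes after HU. In all, 7020839 UMIs were counted in 2124 barcodes after HU and 17217962 in 2948 barcodes at 4-day reload. Before the limit on C1q genes, 1890 HU and 2425 reload barcodes passed, and the limit took 37.1% of them after HU and 53.9% at 4-day reload. The share of barcodes over 10% mitochondrial UMIs was 9.6045% after HU and 17.4% at 4-day reload. The 2 libraries shared 8 barcode sequences, of which 0 were kept in both, and 14 HU and 15 reload barcodes among those kept were marked as likely doublets.

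Kept barcodes were clustered, and clusters were named from marker genes, so that a name below stands for cells that carry those markers. Between 7 and 14 markers were detected in each cluster of the 5 classes described here. Neutrophils were led by Retnlg, S100a9, S100a8 and Cxcr2, and B cells by Igkc, Cd79a and Ms4a1. Classical monocytes were led by Chil3, F13a1 and Vcan, and non-classical monocytes by Cd300e, Ace and Treml4. cDC1 were led by Clec9a and Itgae, and cDC2 by Retnla, Cd209a and Mgl2. T cells formed a CD8 cluster with Cd8b1 and Gzmk, a CD4 cluster with Cd40lg, Tnfrsf4 and Cd4, and a gamma delta cluster with Trdc, Trdv4 and Il17a. Not every kept barcode was a leukocyte, although CD45 had been used to sort. Endothelial cells, fibroblasts and mural cells made up 296 of the 1189 kept HU barcodes (24.9%) and 28 of the 1117 kept reload barcodes (2.51%). A cluster led by the macrophage genes Pf4, Ms4a7 and C3ar1 still held 23 HU and 133 reload barcodes in spite of the C1q limit. These and 3 unnamed barcodes were left out of the denominators below, which were 868 leukocytes after HU and 955 at 4-day reload.

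The share of monocytes and dendritic cells among kept leukocytes was higher at 4-day reload than after HU, and that of T cells was lower. Monocytes were 87 of 868 cells after HU, or 10.0% (8.11 to 12.2), and 255 of 955 at 4-day reload, or 26.7% (23.9 to 29.6). Dendritic cells were 140 cells, or 16.1% (13.7 to 18.7), after HU and 288 cells, or 30.2% (27.3 to 33.2), at 4-day reload. T cells were 220 cells, or 25.3% (22.5 to 28.4), after HU and 102 cells, or 10.7% (8.79 to 12.8), at 4-day reload. The difference was 16.7 percentage points (13.2 to 20.1) for monocytes, 14.03 (10.2 to 17.8) for dendritic cells and −14.7 (−18.2 to −11.2) for T cells, each larger than its counting error.

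Neutrophils and B cells took similar shares in the 2 libraries, with differences whose intervals include 0. Neutrophils were 183 cells, or 21.1% (18.4 to 24.0), after HU and 190 cells, or 19.9% (17.4 to 22.6), at 4-day reload, which differ by −1.19 points (−4.91 to 2.51). B cells were 59 cells, or 6.80% (5.21 to 8.68), and 75 cells, or 7.85% (6.23 to 9.75), which differ by 1.06 points (−1.37 to 3.46). The neutrophil value depended on which barcodes were admitted. Neutrophils hold little RNA, and 136 of the 183 after HU and 41 of the 190 at 4-day reload had fewer than 500 genes. With a minimum of 500 genes per barcode the neutrophil share was 7.08% after HU and 16.7% at 4-day reload, a difference of 9.61 points.

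**Figure D1:**
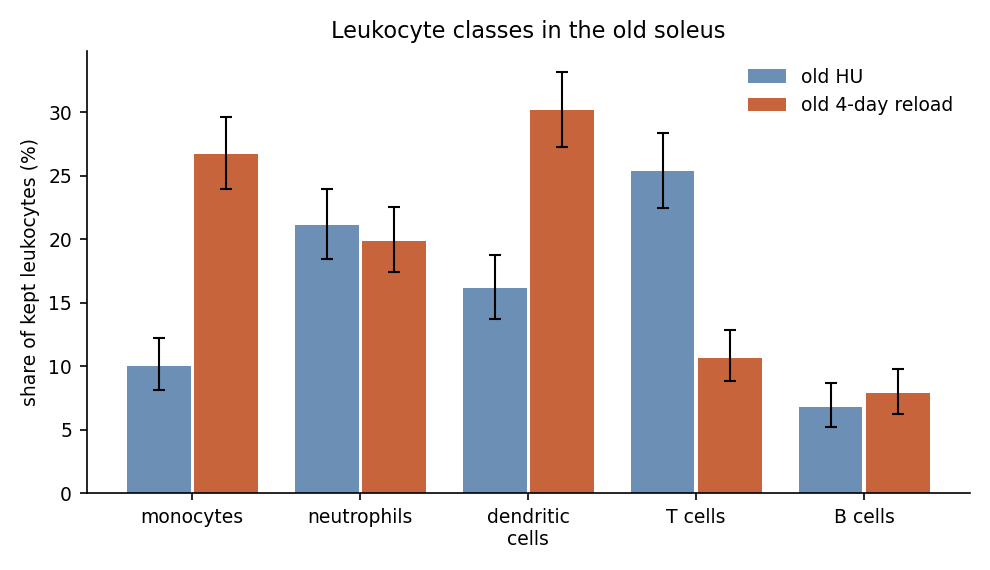
Share of kept leukocytes (y axis, percent) in each of 5 classes (x axis) in the old HU and old 4-day reload libraries, with bars for the share and error bars for its exact 95% binomial interval. Monocytes stood at 10.0% and 26.7%, dendritic cells at 16.1% and 30.2% and T cells at 25.3% and 10.7%, while the intervals of neutrophils and of B cells overlap.

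These shares move against each other, since they add up to the same whole, and macrophages had been removed. Counted against all barcodes that passed before the C1q limit, monocytes were 4.60% after HU and 10.5% at 4-day reload, and dendritic cells 7.41% and 11.9%. T cells were 11.6% and 4.21%, neutrophils 9.68% and 7.84%, and B cells 3.12% and 3.09%. The classes kept their order by difference, but the neutrophil difference of −1.85 points (−3.58 to −0.156) no longer included 0. What the limit took was also counted among barcodes gated on lineage genes. With a gate that also allowed no UMI of Csf1r, Adgre1 or Mrc1, it took 2 of 177 T cells after HU and 1 of 99 at 4-day reload. With the same condition it took 2 of 151 and 2 of 154 neutrophils. The gates for monocytes and dendritic cells lacked this condition and can include macrophages, so these shares cannot be compared between classes. In barcodes with classical monocyte genes the limit took 368 of 441 (83.4%) and 736 of 1024 (71.9%), so the monocytes described here are those with little or no C1q. For cDC1 it took 13 of 37 (35.1%) and 19 of 146 (13.01%), and for cDC2 75 of 194 (38.7%) and 211 of 627 (33.7%). How much of the class differences came from the limit was not tested.

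Within the classes, classical monocytes and CD8 T cells took a larger share at 4-day reload. Classical monocytes were 29 of 87 monocytes (33.3%, 23.6 to 44.3) after HU and 169 of 255 (66.3%, 60.1 to 72.1) at 4-day reload. As a share of leukocytes they were 3.34% and 17.7%, a difference of 14.4 points (11.7 to 17.1), whereas non-classical monocytes were 6.68% and 9.01%, a difference of 2.32 points (−0.166 to 4.80). Most of the monocyte difference thus lay in the classical cluster. CD8 T cells were 84 of 220 T cells (38.2%) after HU and 67 of 102 (65.7%) at 4-day reload, a difference of 27.5 points (15.8 to 37.999). CD4 T cells were 82 (37.3%) and 19 (18.6%), a difference of −18.6 points (−27.8 to −8.06), and gamma delta T cells were 54 (24.5%) and 16 (15.7%), a difference of −8.86 points (−17.3 to 0.932). When the 2 old libraries were clustered alone the gamma delta difference was −20.1 points, and CD4 and CD8 T cells did not separate there or at a coarser clustering. Against all leukocytes each of the 3 T cell clusters was lower at 4-day reload, with differences for CD8 of −2.66 points (−5.26 to −0.123), CD4 of −7.46 (−9.70 to −5.37) and gamma delta of −4.55 (−6.46 to −2.79).

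The T cell clusters were also read from single genes. After each T cell was thinned to 1000 UMIs, Cd8a or Cd8b1, which code for the CD8 coreceptor, had a UMI in 25 of 202 cells (12.4%) after HU and 26 of 95 (27.4%) at 4-day reload. Without thinning the counts were 54 of 220 (24.5%) and 41 of 102 (40.2%). Cd4, whose mRNA is scarce in these data, had a UMI in 7 of 202 (3.47%, 1.40 to 7.01) and 6 of 95 (6.32%, 2.35 to 13.2) thinned cells. This share was not lower at 4-day reload, unlike that of the CD4 cluster, but the intervals overlap and few cells held the gene. Trdc, Trdv4 or Cd163l1, the genes of the gamma delta cluster, had a UMI in 53 of 202 (26.2%, 20.3 to 32.9) and 16 of 95 (16.8%, 9.94 to 25.9), intervals that overlap too. None of these genes had a UMI in the 59 HU and 75 reload B cells, which allows a share of up to 5.08% and 4.00%.

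**Figure D2:**
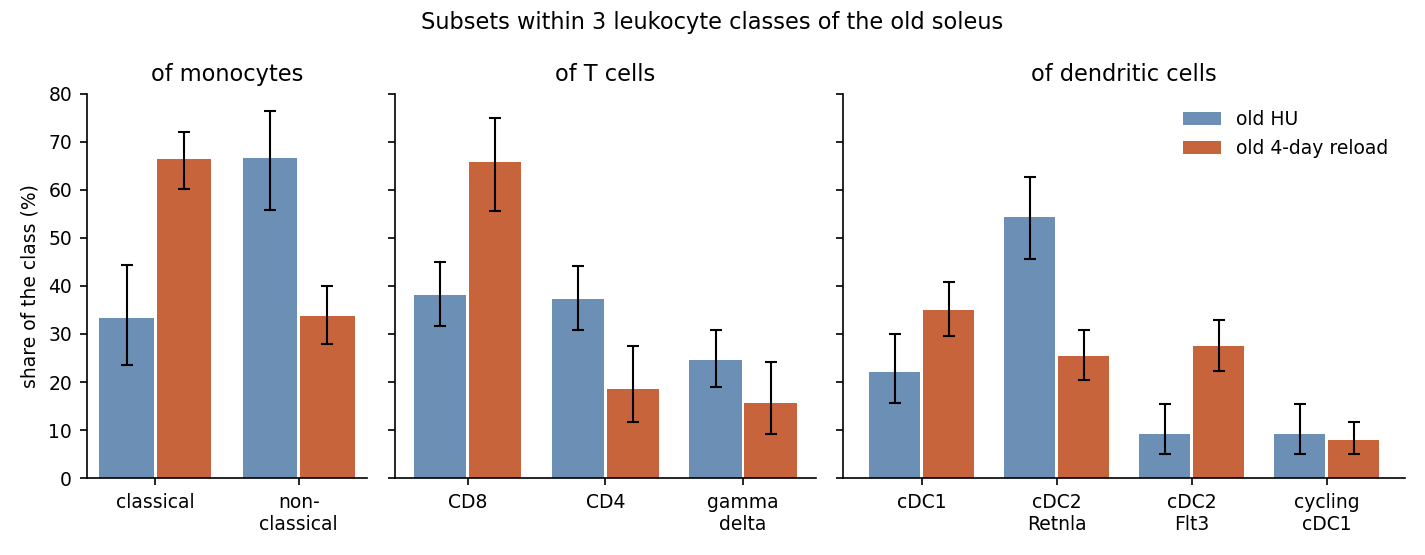
Share of each class (y axis, percent) taken by its subsets (x axis, 3 panels for monocytes, T cells and dendritic cells) in old HU and old 4-day reload, with exact 95% binomial intervals as error bars. Classical monocytes, CD8 T cells and the Flt3 cluster of cDC2 take larger shares at 4-day reload, and the Retnla cluster of cDC2 a smaller one (54.3% against 25.3%). Dendritic cell subsets are those of a finer clustering, and dendritic cells with few UMIs are not drawn.

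Gene levels were compared on the summed UMIs of a class in each library, as CPM (UMIs of the gene per 1000000 UMIs of the class), and a ratio is always 4-day reload over HU on the log2 scale. A gene was measured with at least 50 UMIs over both libraries, and it was counted as higher or lower from a 2-fold ratio on. A gene that stood below 0.5 times its level over all barcodes of the libraries cannot be told apart from free RNA of other cells, which droplets pick up, and is named as such. Where a ratio is called 1 of the largest or lowest, this holds among genes with at least 100 UMIs that passed the further limits for naming, which many genes of few UMIs did not.

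In monocytes, 19 of 42 measured interferon response genes were higher at 4-day reload, and 8 of 40 early response genes were lower. There were 285351 UMIs in the 87 HU monocytes and 1476917 in the 255 reload monocytes. Of 3605 genes measured, 361 (10.0%) were at least 2-fold higher and 80 (2.22%) at least 2-fold lower, with a median ratio of 0.09. Of the 57 interferon response genes, 42 were measured, 0 were at least 2-fold lower, and their median was 0.93. As HU monocytes were mostly non-classical and reload monocytes mostly classical, the list was also read in each cluster. In classical monocytes 16 of 42 were higher and 0 lower with a median of 0.71, where 11.3% of all genes were higher and 2.69% lower. In non-classical monocytes 2 of 8 were higher and 0 lower with a median of 0.45, where 8.58% of all genes were higher and 2.71% lower.

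Rsad2, which codes for the antiviral enzyme viperin, had 2 and 164 UMIs after HU and at 4-day reload, or 7.01 and 111 CPM, a ratio of 3.99 (2.11 to 7.04). In classical monocytes alone it had 2 and 159 UMIs and a ratio of 3.34 (1.46 to 6.39). Over all monocytes, its reload UMIs lay in 44 of the 255 cells, with 37 of the 164 in 1 cell. Under other ways of processing its ratio there ranged from 1.61 to 4.91. Slfn5, a Schlafen family gene induced by type I interferon, had 12 and 310 UMIs, or 42.1 and 209.9 CPM, a ratio of 2.32 (1.49 to 3.29). Both genes were rare in the HU monocytes, with 12 UMIs or fewer. Ifi209, an interferon-inducible gene of the DNA-binding p200 family, had 7 and 174 UMIs and a ratio of 2.26 (1.19 to 3.60). Ifitm3, Ly6e, Ifitm2 and Ifi27l2a, the 4 genes of the list with most UMIs, were already at 5362, 2383, 3179 and 2005 CPM after HU. Their ratios were 0.37 (0.29 to 0.45), 0.27 (0.16 to 0.39), −0.32 (−0.42 to −0.21) and 0.40 (0.27 to 0.53), all under 2-fold, so the genes that were 2-fold higher were scarcer ones.

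The promoters of these genes are shown because many interferon genes carry a site for the factors ISGF3 and IRF, the interferon-stimulated response element, before their start. The windows are from RefSeq on GRCm38.p6 and run from 250 bases before the start of the gene to 50 after it, on the strand of the gene. They were searched for GAAA and GAAA with any 2 bases between, and for TTTC and TTTC with any 2 bases between, which is the same motif read on the other strand, and a match is in capitals.
Rsad2, chr12:26456403-26456702, minus strand: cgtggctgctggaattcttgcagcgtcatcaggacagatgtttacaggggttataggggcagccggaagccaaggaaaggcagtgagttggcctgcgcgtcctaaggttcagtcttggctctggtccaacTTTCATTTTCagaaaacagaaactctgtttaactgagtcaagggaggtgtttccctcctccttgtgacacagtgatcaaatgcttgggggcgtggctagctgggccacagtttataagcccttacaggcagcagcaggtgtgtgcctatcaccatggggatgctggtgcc
Slfn5, chr11:82951852-82952151, plus strand: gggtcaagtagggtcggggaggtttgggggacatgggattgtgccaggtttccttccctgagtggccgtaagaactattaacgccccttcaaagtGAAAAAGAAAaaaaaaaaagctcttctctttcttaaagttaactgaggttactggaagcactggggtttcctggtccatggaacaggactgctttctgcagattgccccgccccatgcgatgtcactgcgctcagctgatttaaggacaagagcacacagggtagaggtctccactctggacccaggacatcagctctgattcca
Oasl2, chr5:114896684-114896983, plus strand: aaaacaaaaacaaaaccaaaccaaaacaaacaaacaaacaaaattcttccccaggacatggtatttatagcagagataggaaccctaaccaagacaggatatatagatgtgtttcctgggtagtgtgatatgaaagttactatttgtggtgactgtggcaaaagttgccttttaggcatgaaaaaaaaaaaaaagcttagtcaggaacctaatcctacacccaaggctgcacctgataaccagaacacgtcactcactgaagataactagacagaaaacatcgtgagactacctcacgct
Rsad2 had 1 match 120 bases before its start and Slfn5 1 match 155 bases before its start. Oasl2, which had the largest ratio in neutrophils, had 0 matches in this window. The motif was found in 1131 of all 32851 promoters (3.44%). Of the interferon genes measured in monocytes, 20 of the 32 with a promoter in the table (62.5%) held it, against 160 of 2877 (5.56%) of all genes measured there. In neutrophils it was in 7 of 13 (53.8%) against 50 of 908 (5.51%), and in dendritic cells in 14 of 26 (53.8%) against 192 of 4342 (4.42%). A match says only that these letters are present.

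**Figure D3:**
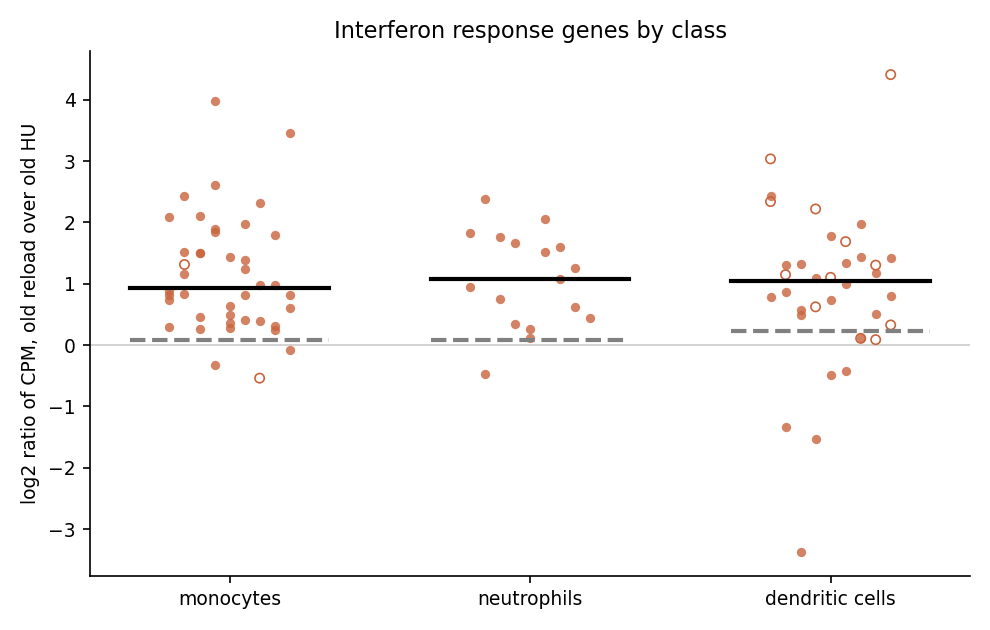
Log2 ratio of CPM, old reload over old HU (y axis), for each measured gene of the interferon response list in monocytes, neutrophils and dendritic cells (x axis), with open circles for genes below 0.5 times their level over all barcodes, a solid line at the median of the list and a dashed line at the median of all genes measured. The list medians of 0.93, 1.07 and 1.04 lie above the medians of all genes, 0.09, 0.09 and 0.22.

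The other genes with the largest ratios in monocytes were of several kinds. Ptgs2, the inducible cyclooxygenase that makes prostaglandins, had 2 and 102 UMIs, a ratio of 3.30 (1.41 to 6.37). Mefv, which codes for pyrin, an inflammasome sensor, had 5 and 172 UMIs and a ratio of 2.73 (1.48 to 4.37). Fabp5, a fatty acid carrier of maturing macrophages, had 5 and 143 UMIs and a ratio of 2.47 (1.21 to 4.11). These genes had 2 to 5 UMIs after HU, so the sizes of their ratios are poorly fixed. The adaptor gene Grb2 (2.25, 1.30 to 3.40), the galactosyltransferase gene B4galt5 (2.43, 1.27 to 3.89), the phosphatase gene Ctdsp2 (2.70, 1.11 to 5.003) and Sidt2, which codes for a lysosomal membrane protein (2.23, 0.96 to 3.87), completed the 10 largest.

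Of 20 genes of monocyte identity measured, 8 were higher at 4-day reload and 0 lower in all monocytes, with a median of 0.75. Within classical monocytes 2 of 20 were higher, a share below the 11.3% of all genes there, and the median was 0.42 against 0.07. Classical monocytes took a larger share of the reload monocytes, and these genes had also helped to place the cells in the clusters. Ly6c2, the gene for Ly6C, was at 883 and 1916 CPM in classical monocytes, a ratio of 1.12 (0.87 to 1.38). Ccr2, the receptor that draws monocytes out of the bone marrow and into tissue, was at 272 and 490.0 CPM there, a ratio of 0.85 (0.39 to 1.34). Lyz2, the lysozyme gene, was higher in both clusters, with ratios of 0.83 (0.77 to 0.90) in classical and 0.98 (0.86 to 1.10) in non-classical monocytes. Ly6c2 thus differed within the classical cluster too.

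Hmox1, which codes for the heme-degrading enzyme heme oxygenase 1, was with Fabp5 the gene of the macrophage differentiation list that was 2-fold higher. It was at 904 and 2156 CPM, a ratio of 1.25 (1.07 to 1.44), and its ratio was 0.98 (0.76 to 1.21) in classical and 1.34 (1.002 to 1.70) in non-classical monocytes. The list as a whole had 2 of 18 higher, 3 lower and a median of −0.09. Of 8 growth and repair genes measured, 4 were 2-fold higher and 0 lower, with a median of 0.85. Thbs1, the gene for the matrix protein thrombospondin 1, had 184 and 2124 UMIs and a ratio of 1.16 (0.94 to 1.38), which was 0.58 (0.36 to 0.81) within classical monocytes. Cd44, the hyaluronan receptor, had a ratio of 1.02 (0.74 to 1.32) with 0.85 in classical and 0.97 in non-classical monocytes. Slc16a3, the lactate exporter, had a ratio of 1.27 (0.89 to 1.68) and was the only measured gene of the glycolysis list past 2-fold, while Gapdh was at −0.72 and the list median was −0.16.

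MHC class II genes, whose proteins show antigen to CD4 T cells, were higher at 4-day reload in 7 of 8 measured, with a median of 1.41. The difference was largest in non-classical monocytes, where 5 of 6 were higher with a median of 4.01. H2-Aa had 3 and 623 UMIs there, or 22.3 and 2140.0 CPM, a ratio of 6.59 (5.03 to 8.87), and the reload UMIs lay in 36 of the 86 cells. Cd74, the invariant chain, was at 1515 and 10291 CPM in the same cluster, a ratio of 2.76 (2.56 to 2.98). In all monocytes, H2-Aa, H2-Ab1 and Cd74 stood below 0.5 times their level over all barcodes, which include dendritic cells and macrophages. In neutrophils, which should lack it, Cd74 was at 144 and 233 CPM, also more at 4-day reload, and over all monocytes at 3406 and 8516 CPM. The part of free RNA in these values was not tested. The summed level of 28 dendritic cell markers in monocytes was 778 CPM after HU and 955 at 4-day reload.

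Early response genes are switched on within minutes of a stimulus. Of 40 measured genes of this NF-kB and early response list, 8 were lower at 4-day reload and 2 higher, with a median of −0.38. Ier2 had 792 and 219 CPM after HU and at 4-day reload, a ratio of −1.86 (−2.11 to −1.605), with −0.95 (−1.39 to −0.48) in classical and −1.76 (−2.12 to −1.41) in non-classical monocytes. Junb, a subunit of the AP-1 factor, had a ratio of −1.30 (−1.43 to −1.17), with −0.87 and −1.73 in the 2 clusters. Both genes were thus lower in both clusters. Nr4a1, an early gene that non-classical monocytes need, had a ratio of −1.26 (−1.48 to −1.04) over all monocytes but of −0.01 (−0.60 to 0.64) in classical and −0.53 (−0.78 to −0.28) in non-classical ones. Socs3, the feedback inhibitor of cytokine signalling, was at 287 and 86.7 CPM with a ratio of −1.73 (−2.14 to −1.31), and Id3, an inhibitor of helix-loop-helix factors, at 326 and 88.0 CPM with −1.89 (−2.28 to −1.49). Klf9, a target of the glucocorticoid receptor, had 29 and 26 UMIs and a ratio of −2.53 (−3.35 to −1.71). The glucocorticoid list had a median of −0.52, with 0 of 13 higher and 2 lower.

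Other genes lower in monocytes were Pla2g7, the platelet-activating factor hydrolase (−1.47, −1.73 to −1.20), the RNA-binding protein gene Zfp36l1 (−1.64, −2.01 to −1.26), the cold-inducible Cirbp (−1.68, −2.28 to −1.07), Dgat2, which makes triglycerides (−1.65, −2.21 to −1.07), and the stress gene Nupr1 (−1.35, −1.62 to −1.08). For 2 further ones the interval included 0 in the non-classical cluster, which held most HU monocytes. The fatty acid receptor gene Cd36 had a ratio of −1.52 (−1.90 to −1.14) over all monocytes and −0.31 (−0.71 to 0.09) in the non-classical ones, and the survival gene Bcl2a1b had −1.42 (−1.80 to −1.02) and −0.32 (−0.74 to 0.10). Cytokine genes did not go one way. Il1b was at 1213 and 1521 CPM, a ratio of 0.33 (0.16 to 0.49), and the chemokine gene Ccl9 at 154 and 469 CPM, a ratio of 1.61 (1.17 to 2.08). Of the 16 inflammatory genes measured, 7 were higher and 1 lower with a median of 0.32, and 11 of them stood below 0.5 times their level over all barcodes. Markers of other cells were not equal in the HU and reload monocytes. T cell markers were seen in 9 of 18 genes and 112 CPM after HU and 1 of 18 and 0.677 CPM at 4-day reload, endothelial markers summed to 470 and 151 CPM, and macrophage markers to 3200 and 2803 CPM. Their part in the monocyte values was not tested.

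Neutrophils of the reload library were higher in 9 of 17 interferon genes and lower in Cxcl2, Ccrl2 and Nfkbia, while S100a8, S100a9 and Il1b differed little. The 183 HU neutrophils held 194135 UMIs and the 190 reload neutrophils 287642, with medians of 959 and 1431 UMIs per cell. Of 1154 genes measured, 92 (7.97%) were at least 2-fold higher and 36 (3.12%) lower, with a median of 0.09. Of 17 interferon response genes measured, 9 were higher and 0 lower, with a median of 1.07, and 16 had a ratio above 0.

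Oasl2, an antiviral gene of the oligoadenylate synthetase family, had 13 and 100 UMIs, or 67.0 and 348 CPM, a ratio of 2.38 (1.54 to 3.33). Rsad2 had 24 and 121 UMIs, a ratio of 1.77 (1.13 to 2.46), and Rtp4, a chaperone induced by interferon, 26 and 122 UMIs, a ratio of 1.66 (1.04 to 2.33). Isg15, a ubiquitin-like protein, had 659 and 1387 CPM, a ratio of 1.07 (0.78 to 1.37). All 4 were higher, and Isg15, the most abundant of them, had the smallest ratio. Ifitm2, the most abundant of the list, was at 6975 and 5009.7 CPM, a ratio of −0.48 (−0.59 to −0.37), and was the only one of the 17 below 0. Slfn4, a Schlafen gene of myeloid cells that the list does not hold, had 56 and 232 UMIs and a ratio of 1.48 (1.06 to 1.93).

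Cxcl2, which codes for the chemokine that draws further neutrophils, was at 7103 and 2419.7 CPM, a ratio of −1.55 (−1.69 to −1.42). Ccrl2, an early gene of activated neutrophils and a chemerin receptor, was at 1107 and 369 CPM, a ratio of −1.59 (−1.94 to −1.25). Fpr1, the receptor for formylated bacterial peptides, had a ratio of −1.09 (−1.61 to −0.59). These 3 were the members of the activation and trafficking list of 30 measured genes that were 2-fold lower, against 1 higher and a median of 0.00. Il1b, by contrast, was at 6465 and 6678 CPM, a ratio of 0.05 (−0.06 to 0.15) that includes 0. Among early genes, Nfkbia, the inhibitor of NF-kB, had a ratio of −1.07 (−1.27 to −0.87) and Ier2 of −1.03 (−1.39 to −0.68), and the list of 33 measured genes had 0 higher, 5 lower and a median of −0.39. Marcksl1 (−1.10, −1.32 to −0.89), Igsf6 (−1.32, −1.94 to −0.72), the protease gene Asprv1 (−1.498, −1.85 to −1.15), which is a marker of the class, Tagln2 (−1.14, −1.58 to −0.70) and Serinc3 (−1.15, −1.74 to −0.58) were lower as well.

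The calprotectin genes S100a8 and S100a9, the largest products of neutrophils, differed by less than 2-fold. S100a8 was at 57821 and 71359.5 CPM, a ratio of 0.30 (0.27 to 0.34), and S100a9 at 75983 and 85506 CPM, a ratio of 0.17 (0.14 to 0.20). Retnlg, a resistin-like secreted protein, had a ratio of −0.97 (−1.04 to −0.90), and Mmp9, the gelatinase of tertiary granules, 1.002 (0.70 to 1.31). Of 16 granule and maturation genes measured, 1 was higher and 3 lower with a median of −0.24, and the 3 lower ones rested on 1 cell. A single HU neutrophil with 5773 UMIs held all 547 UMIs of Camp, all 115 of Ltf and 627 of the 640 of Ngp, which are granule genes of immature neutrophils. Camp had 0 UMIs in the 190 reload neutrophils, which allows a share of up to 1.58% of cells with a UMI.

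Some receptor and remodelling genes of neutrophils were higher. Sirpa, which receives the signal against phagocytosis, had 11 and 65 UMIs and a ratio of 1.996 (1.06 to 3.07), and Ptgs2 had 11 and 58 UMIs and a ratio of 1.83 (0.89 to 2.91). The chemokine receptors stayed under 2-fold. Cxcr2, a receptor of neutrophil chemokines, had a ratio of 0.62 (0.31 to 0.95) and Cxcr4, the bone marrow homing receptor, of 0.82 (0.46 to 1.18). Of 10 chemokine receptor and adhesion genes measured, 1 was higher and 0 lower with a median of 0.50. Growth and repair genes were 4 of 7 higher with a median of 1.002, among them Timp2 (1.603, 0.68 to 2.64), an inhibitor of matrix proteases, Adam8 (1.04, 0.67 to 1.42), a membrane protease, and Tgm2 (1.06, 0.58 to 1.55), a transglutaminase. The phosphatase gene Dusp5 (1.59, 0.94 to 2.29), the microRNA effector Ago2 (1.58, 0.85 to 2.38), Zcchc6 (1.57, 0.90 to 2.29) and the corepressor Ncor1 (1.54, 0.81 to 2.35) were also among the 10 largest ratios. Endothelial markers in neutrophils summed to 319 CPM after HU and 24.3 CPM at 4-day reload, and macrophage markers to 278 and 316 CPM. Their part in the neutrophil values was not tested.

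In dendritic cells, 18 of 36 measured interferon genes and 8 of 19 MHC class I genes were higher at 4-day reload, and 11 of 19 inflammatory and 11 of 42 early response genes were lower, with other values in each subset. The 140 HU cells held 907774 UMIs and the 288 reload cells 2989315, with medians of 6004 and 10129 UMIs per cell. Of 5428 genes measured, 638 (11.8%) were at least 2-fold higher and 147 (2.71%) lower, with a median of 0.22. At the main clustering, cDC1 were 39 of 140 dendritic cells (27.9%) after HU and 113 of 288 (39.2%) at 4-day reload, and cDC2 were 88 (62.9%) and 152 (52.8%). Cycling cDC1 were 13 (9.29%) and 23 (7.99%). Cells with at least 4 of 7 genes of migratory dendritic cells were 2 of 140 and 4 of 288, too few to compare.

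A finer clustering, which was chosen after the values were seen, split cDC2 in 2. One cluster was led by Retnla, Lyz1, Fcrls, Mgl2, Ccl17 and Cd163, of which Fcrls and Cd163 are also known from macrophages. It held 76 of the 140 HU dendritic cells (54.3%, 45.7 to 62.7) and 73 of the 288 reload ones (25.3%, 20.4 to 30.8). The other was led by Cd7, Siglech, Clec10a, Cd209a and Ccr7. It is called the Flt3 cluster here, which is a label only, since Flt3, the receptor for the dendritic cell growth factor, was not among its leading genes. Siglech was also on the marker list of plasmacytoid dendritic cells, and had a UMI in 3 of 140 HU and 13 of 288 reload dendritic cells. The Flt3 cluster held 13 HU cells (9.29%, 5.04 to 15.4) and 79 reload cells (27.4%, 22.4 to 32.97). The cDC1 cluster of this finer clustering held 31 HU and 101 reload cells, and the cDC1 gene values below are from these cells. In the old control library, which came from another sequencing run, the Retnla cluster held 63 and the Flt3 cluster 41 of 190 dendritic cells. The genes that divide these clusters also chose their cells, so their shares and these genes are the same observation.

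Of 36 interferon genes measured in dendritic cells, 18 were higher and 3 lower with a median of 1.04, and 12 of them stood below 0.5 times their level over all barcodes. In cDC1 9 of 17 were higher and 2 lower with a median of 1.10, where 18.4% of all genes were higher and 2.86% lower with a median of 0.32. In the Flt3 cluster 8 of 15 were higher and 0 lower with a median of 1.004, where 298 of all 1868 genes were higher and 2.84% lower with a median of 0.16. In the Retnla cluster 1 of 10 was higher and 0 lower with a median of 0.17, where 7.78% of all genes were higher and 1.97% lower with a median of 0.12. Ly6e had 216 and 1576 UMIs in all dendritic cells, a ratio of 1.15 (0.94 to 1.36), but its ratios were 0.02 (−0.35 to 0.40) in cDC1, 0.94 (0.36 to 1.55) in the Retnla cluster and 0.75 (0.33 to 1.19) in the Flt3 cluster. Cxcl9, a chemokine that draws T cells and is itself induced by interferon gamma, went against the list. It had 44 and 14 UMIs, a ratio of −3.37 (−4.35 to −2.48), with 36 and 10 of these UMIs in cDC1. The 44 HU UMIs lay in 10 of the 140 cells, and a single cell held 20 of them. Without that cell the ratio was −2.51 (−3.58 to −1.50).

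Ifitm1, an interferon-induced membrane protein that the list does not hold, had the largest ratio among genes that passed the limits. It had 34 and 1080 UMIs, or 37.5 and 361 CPM, a ratio of 3.27 (2.78 to 3.81). It was higher in each subset, by 3.90 (2.33 to 6.18) in cDC1, 1.73 (0.67 to 2.95) in the Retnla cluster and 1.77 (1.17 to 2.46) in the Flt3 cluster. Plac8, a lysosomal gene of young myeloid cells, had a ratio of 2.20 (1.88 to 2.54), which was 1.77 (1.23 to 2.36) in cDC1, −0.32 (−1.27 to 0.65) in the Retnla cluster and 0.81 (0.31 to 1.35) in the Flt3 cluster. Csf2rb, the shared receptor chain for GM-CSF, IL-3 and IL-5, was at 68.3 and 285 CPM, a ratio of 2.06 (1.69 to 2.46), with 3.07 (2.07 to 4.29), 1.70 (1.15 to 2.29) and 1.59 (0.59 to 2.82) in the 3 subsets in the same order. Csf2rb and Ifitm1 were thus higher in all 3 subsets, whereas the interval of Plac8 includes 0 in the Retnla cluster. Gpr171 (2.17, 1.62 to 2.78), Hmgcs1, an enzyme of cholesterol synthesis (2.11, 1.42 to 2.89), the nuclear pore gene Nup210 (2.25, 1.47 to 3.14), Mpnd (2.34, 1.43 to 3.43), the kinase gene Hipk2 (2.30, 1.43 to 3.33), the factors Yy1 (2.19, 1.46 to 3.02) and Mafg (2.07, 1.29 to 2.97), and Ciita (2.29, 1.20 to 3.64), the master activator of MHC class II and a marker used to name the class, were the others with the largest ratios. Gpr171 had 1.49 (0.80 to 2.27) in cDC1, −0.04 (−1.92 to 1.95) in the Retnla cluster and 0.85 (−0.42 to 2.51) in the Flt3 cluster. Hmgcs1, Nup210, Mpnd, Hipk2, Yy1 and Mafg had intervals above 0 in cDC1 and the Retnla cluster but not in the Flt3 cluster. Ciita had only 7 HU UMIs, and its ratio was 0.22 (−1.79 to 3.35) in the Flt3 cluster and 1.73 (0.31 to 3.48) in the Retnla cluster.

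MHC class I genes, whose products show peptides to CD8 T cells, were 8 of 19 higher and 0 lower with a median of 0.78. H2-K1 was at 456 and 984 CPM, a ratio of 1.11 (0.96 to 1.26), and its ratios were 1.48 (1.12 to 1.87) in cDC1, 0.79 (0.57 to 1.01) in the Retnla cluster and 1.24 (0.80 to 1.71) in the Flt3 cluster. H2-D1 had a ratio of 0.78 (0.69 to 0.87), H2-Q7 of 1.72 (0.998 to 2.53) and B2m, the light chain, of 0.46 (0.34 to 0.58). MHC class II differed less, with 3 of 14 higher, 0 lower and a median of 0.39. H2-Ab1 had a ratio of 0.62 (0.58 to 0.65), H2-Aa of 0.03 (0.00 to 0.06) and Cd74 of −0.37 (−0.39 to −0.36). The costimulatory gene Cd80 had 14 and 104 UMIs and a ratio of 1.17 (0.36 to 2.09), while the maturation list of 16 measured genes had 2 higher, 4 lower and a median of −0.11. The chaperone gene Hsp90aa1 was at 283 and 711 CPM, a ratio of 1.33 (1.14 to 1.52), and the heat shock list of 12 had 3 higher, 0 lower and a median of 0.33.

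Inflammatory cytokine and chemokine genes had 11 of 19 lower, 1 higher and a median of −1.26 over all dendritic cells. In cDC1 7 of 9 were lower and 1 higher with a median of −1.56. In the Retnla cluster the median was −0.04 and in the Flt3 cluster −0.30. Ccl4, a chemokine that attracts monocytes and lymphocytes, was at 442 and 139 CPM, a ratio of −1.66 (−1.86 to −1.46), with −2.35 (−2.88 to −1.82) in cDC1 and −1.04 (−1.30 to −0.79) in the Retnla cluster. Ccl6, a chemokine of myeloid cells, had a ratio of −1.29 (−1.38 to −1.20), but of −0.08 (−0.18 to 0.02) in the Retnla cluster, where most of its UMIs were. Cxcl2, below 0.5 times its level over all barcodes, had −1.26 (−1.38 to −1.13) in all dendritic cells and 0.00 (−0.13 to 0.13) in the Retnla cluster. Il1b went the other way over all dendritic cells, at 1049.8 and 1488 CPM, a ratio of 0.50 (0.40 to 0.61). By subset, its ratio was −0.40 (−0.61 to −0.19) in cDC1, 0.78 (0.61 to 0.95) in the Retnla cluster and 0.15 (−0.06 to 0.37) in the Flt3 cluster. Il1b was thus lower in cDC1. Of the inflammatory genes, 8 stood below 0.5 times their level over all barcodes.

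Early genes had 11 of 42 lower, 6 higher and a median of −0.44 over all dendritic cells. The medians were −0.35 in cDC1, with 14 of 37 lower, −0.26 in the Flt3 cluster and 0.34 in the Retnla cluster. Ier3, an early gene that guards against apoptosis, was at 791 and 152 CPM, a ratio of −2.38 (−2.55 to −2.21), with −2.56 (−3.01 to −2.12), −1.53 (−1.77 to −1.29) and −0.89 (−1.599 to −0.10) in cDC1, the Retnla cluster and the Flt3 cluster. Socs3 had a ratio of −1.96 (−2.18 to −1.74), with −2.95 (−3.57 to −2.34), −0.75 (−1.04 to −0.46) and −2.25 (−2.90 to −1.56). Nfkbia had −0.88 (−0.97 to −0.78) over all and −2.07 (−2.34 to −1.80) in cDC1, but −0.11 (−0.23 to 0.02) in the Retnla cluster. Junb (−1.12, −1.19 to −1.05), Zfp36, which destabilises cytokine mRNA (−1.24, −1.33 to −1.14), and Icam1 (−1.28, −1.48 to −1.08) were lower too. By subset Icam1 had −1.94 (−2.40 to −1.48) in cDC1, −0.31 (−0.58 to −0.04) in the Retnla cluster and −0.82 (−1.53 to −0.03) in the Flt3 cluster. Ier3 stood below 0.5 times its level over all barcodes.

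The gene with the lowest ratio among those with at least 100 UMIs that passed the limits was Sult1a1, a sulfotransferase, at 101 and 14.1 CPM, a ratio of −2.85 (−3.41 to −2.31). It was lower in all 3 subsets, with −2.58 (−3.40 to −1.78), −2.96 (−4.26 to −1.85) and −4.10 (−6.79 to −1.74). Lmo1, a transcription cofactor, had a ratio of −2.01 (−2.25 to −1.77) and was also lower in each, with −1.93 (−2.48 to −1.38), −1.25 (−1.58 to −0.93) and −1.58 (−2.41 to −0.68). Ear2, an eosinophil-type ribonuclease, had 216 and 142 UMIs and a ratio of −2.32 (−2.64 to −2.01), which was −1.16 (−1.52 to −0.81) in the Retnla cluster that held most of it. Hopx (−2.15, −2.69 to −1.61), Spink2 (−1.93, −2.39 to −1.47), Cd302 (−1.92, −2.41 to −1.43), Cirbp (−1.80, −2.12 to −1.49), the metallothionein gene Mt2 (−1.72, −1.96 to −1.47) and the fatty acid transporter Slc27a3 (−1.67, −2.22 to −1.11) completed the 10 lowest. Within the Retnla cluster Hopx had −1.15 (−1.86 to −0.45), Spink2 −0.78 (−1.33 to −0.23) and Cd302 −0.87 (−1.52 to −0.22). Mt2 had −0.39 (−0.65 to −0.12) there, Slc27a3 −0.49 (−1.20 to 0.22) and Cirbp −2.16 (−2.81 to −1.56). All but Cirbp were thus nearer to 0 in this cluster, whose share of dendritic cells was smaller at 4-day reload. The part of that share in the pooled ratios was not tested. Retnla, which codes for a secreted protein of type 2 immunity, had a ratio of −0.74 (−0.81 to −0.67) over all dendritic cells but of 0.79 (0.71 to 0.86) within the Retnla cluster, whose cells it had helped to choose.

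In T cells, 10 of 37 measured early response genes and Tnf were lower at 4-day reload, and 3 of 18 MHC class I genes were higher. The 220 HU cells held 574742 UMIs and the 102 reload cells 330764. Of 1822 genes measured, 102 (5.60%) were at least 2-fold higher and 85 (4.67%) lower, with a median of −0.03. With TMM scaling, another way to set the 2 libraries level, the counts were 66 higher and 146 lower with a median of −0.23, so the balance of higher and lower genes in T cells depends on the scaling. The interferon list, of which only 7 genes were measured here, had 1 higher, 1 lower and a median of −0.20.

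Early response genes were 10 of 37 lower and 2 higher, with a median of −0.52. The difference was graded over the T cell clusters, with medians of 0.04 in CD8, −0.46 in CD4 and −0.75 in gamma delta T cells. Junb was at 4514 and 3116 CPM in CD8, 9679 and 3955 CPM in CD4 and 11522 and 4197 CPM in gamma delta T cells. Its ratios were −0.53 (−0.68 to −0.39), −1.29 (−1.51 to −1.08) and −1.46 (−1.63 to −1.29). The levels after HU differed between the clusters far more than those at 4-day reload. Nr4a1, which reports signalling through the T cell receptor, had ratios of −0.55 (−0.95 to −0.15), −1.07 (−1.55 to −0.62) and −1.78 (−2.23 to −1.36) in the same order. Ier2 had −0.51 (−0.78 to −0.23), −1.03 (−1.48 to −0.60) and −1.59 (−1.98 to −1.22). Zfp36 had −0.35 (−0.93 to 0.22), −1.69 (−2.38 to −1.06) and −1.84 (−2.30 to −1.42). For each of these 4 genes the ratio was nearest to 0 in CD8 and lowest in gamma delta T cells. Over all T cells their ratios were −1.22, −1.44, −1.06 and −1.76.

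**Figure D4:**
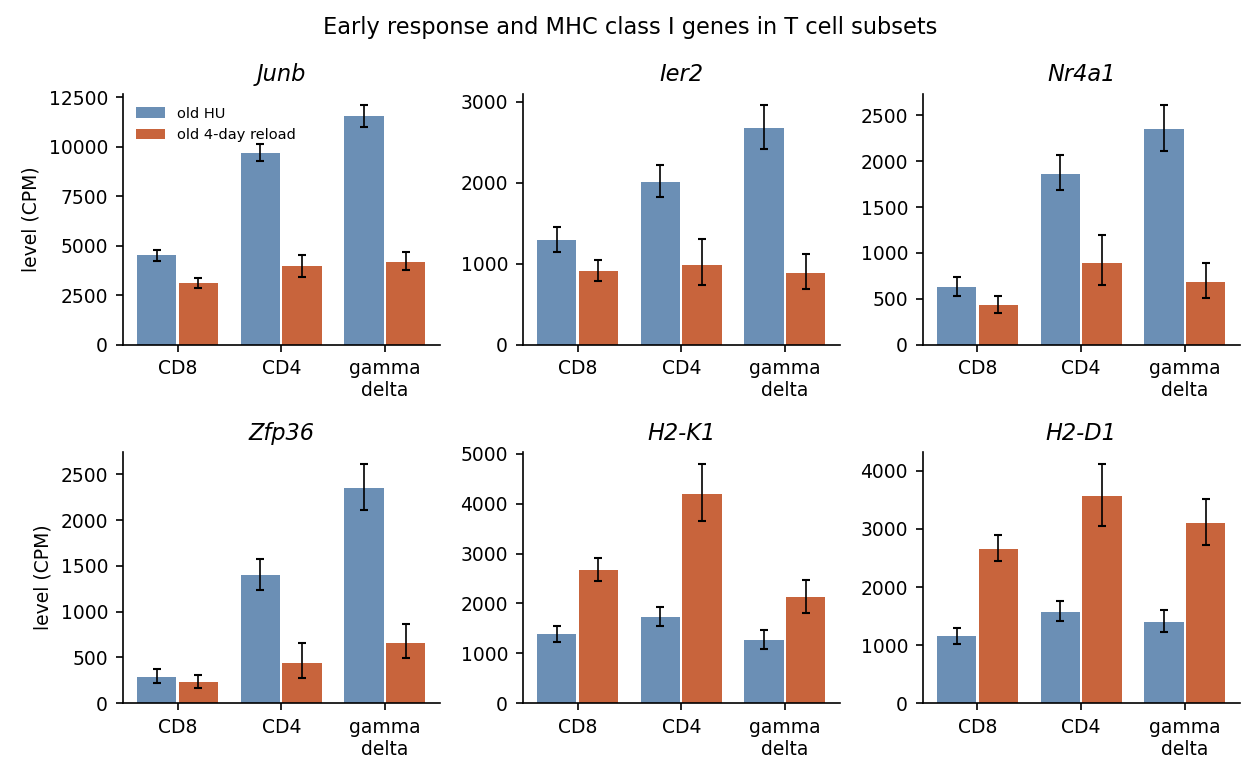
Level (y axis, CPM of the cluster) of 4 early response genes and 2 MHC class I genes (panels) in CD8, CD4 and gamma delta T cells (x axis) of old HU and old 4-day reload, with exact 95% Poisson intervals as error bars. Junb, Ier2 and Nr4a1 are lower at 4-day reload in all 3 clusters, and Zfp36 in CD4 and gamma delta T cells, with the widest gap in gamma delta T cells, and H2-K1 and H2-D1 are higher in all 3 clusters.

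Tnf, which codes for tumor necrosis factor, had 217 and 23 UMIs, or 378 and 69.5 CPM, a ratio of −2.44 (−3.13 to −1.82). It was lower in CD4 T cells, with a ratio of −1.49 (−2.85 to −0.38), and in gamma delta T cells, with −2.78 (−3.87 to −1.85). Tnfsf11, the gene for RANKL, which drives osteoclasts, had 234 and 34 UMIs and a ratio of −1.99 (−2.55 to −1.46), with −0.49 (−1.25 to 0.21) in CD4 and −2.17 (−3.08 to −1.37) in gamma delta T cells. Il2ra, the high-affinity interleukin-2 receptor chain, had 108 and 18 UMIs and a ratio of −1.79 (−2.60 to −1.06), with −0.55 (−1.75 to 0.48) and −1.67 (−2.87 to −0.64). In CD4 T cells the intervals of Tnfsf11 and Il2ra include 0. Of 6 inflammatory genes measured in T cells, 4 were lower and 0 higher with a median of −1.53. Areg, the growth factor amphiregulin, had 81 and 16 UMIs and a ratio of −1.54 (−2.42 to −0.76). Regulatory T cells of muscle make it, but it was also a marker here of innate lymphoid cells, another leukocyte type. The 10 markers of innate lymphoid cells summed to 1028 CPM after HU and 786 CPM at 4-day reload in T cells. Their part in the T cell values was not tested. Foxp3, the master factor of regulatory T cells, had a UMI in 4 HU cells and 1 reload cell, so these cells could not be compared.

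Glucocorticoid target genes were 3 of 12 lower and 0 higher in T cells, with a median of −0.78. Ddit4, an inhibitor of the mTOR kinase, had 134 and 22 UMIs and a ratio of −1.81 (−2.53 to −1.15), Zfp36l2 a ratio of −1.45 (−1.69 to −1.22) and Tsc22d3, the gene for GILZ, −0.79 (−1.15 to −0.45). Socs3 (−1.49, −2.12 to −0.91), the arginine-making enzyme gene Ass1 (−1.77, −2.49 to −1.11), Fam110a (−1.84, −2.68 to −1.10), the cofactor Lmo4 (−1.56, −2.08 to −1.07) and the histone gene H2afx (−1.48, −2.30 to −0.73) were also among the 10 lowest.

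MHC class I genes had 3 of 18 higher and 0 lower, with a median of 0.62 against −0.03 for all genes. H2-Q7, a class Ib gene, had 83 and 238 UMIs and a ratio of 2.32 (1.95 to 2.70). H2-D1 had ratios of 1.21 (0.99 to 1.43), 1.18 (0.90 to 1.44) and 1.14 (0.87 to 1.42) in CD8, CD4 and gamma delta T cells. H2-K1 had 0.95 (0.75 to 1.16), 1.27 (1.02 to 1.52) and 0.75 (0.44 to 1.06). Both had ratios above 0 in all 3 clusters, with intervals that leave out 0. H2-Q and H2-D genes are near copies of each other, and reads that fit several of them may have been lost or placed on either.

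Cytotoxic genes were 3 of 13 higher and 1 lower with a median of 0.48 over all T cells, but 2 of 12 higher and 2 lower with a median of 0.08 within CD8 T cells, where 7.27% of all genes were higher and 1.25% lower. Nkg7, a gene of cytotoxic granules, had a ratio of 1.22 (0.96 to 1.49) over all and 0.77 (0.49 to 1.05) in CD8 T cells. Ccl5, the chemokine RANTES, was at 16240.3 and 11955 CPM in CD8 T cells, a ratio of −0.44 (−0.52 to −0.37), although its ratio over all T cells was 0.19 (0.12 to 0.27). Gzma, the gene for granzyme A, had 71 and 93 UMIs in 2 HU and 9 reload cells, so that a few cells set its ratio of 1.19 (0.73 to 1.65). Ly6c2, which marks memory CD8 T cells, had a ratio of 0.86 (0.54 to 1.18) in CD8 T cells. Satb1, a chromatin organiser of naive T cells, had 37 and 79 UMIs and a ratio of 1.89 (1.31 to 2.496), and the list of naive and circulating T cell genes was 3 of 12 higher and 0 lower with a median of 0.36, but −0.14 within CD8 T cells. Itpkb (1.89, 1.31 to 2.51), Ube2s (1.78, 1.27 to 2.31), the actin-binding Cotl1 (1.76, 1.33 to 2.21), the migration factor Dock2 (1.65, 1.09 to 2.23) and the receptor gene P2ry10 (1.56, 1.02 to 2.12) were among the 10 largest. Trdc (1.57, 1.05 to 2.11) was too, a gene that had defined the gamma delta cluster. Markers of NK cells in T cells summed to 153 CPM after HU and 417 CPM at 4-day reload, and their part was not tested.

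B cells gave the fewest UMIs, 103216 in 59 HU cells and 170452 in 75 reload cells. They were higher in 4 of 8 measured MHC class I genes and in Ifi27l2a and Jund at 4-day reload. Of 580 genes measured, 44 (7.59%) were at least 2-fold higher and 22 (3.79%) lower, with a median of −0.07. MHC class I genes were 4 of 8 higher and 0 lower, with a median of 1.0002. H2-D1 was at 979 and 2194 CPM, a ratio of 1.16 (0.84 to 1.497), H2-K1 had 0.84 (0.52 to 1.16) and H2-Q6 1.89 (0.80 to 3.18). MHC class II was 0 of 9 past 2-fold either way with a median of 0.30, with H2-Ab1 at 0.97 (0.76 to 1.18) and Cd74 at −0.40 (−0.46 to −0.34). The 2 class II genes thus stood on opposite sides of 0.

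Ighd, which codes for IgD of mature unswitched B cells and is a marker of the class, had 17 and 95 UMIs and a ratio of 1.76 (1.004 to 2.60). Ighm and Igkc had ratios of 3.59 and 3.18, but 1 reload cell of 7795 UMIs held 1298 of the 1631 Ighm UMIs, 801 of the 1090 Igkc UMIs and all 128 of Jchain, a gene of antibody-secreting cells. Without that cell the ratios were 1.37 for Ighm and 1.33 for Igkc. Ifi27l2a, an interferon gene, had 24 and 136 UMIs, a ratio of 1.78 (1.15 to 2.47), and Jund, an AP-1 subunit, 47 and 241 UMIs, a ratio of 1.63 (1.18 to 2.12). Satb1 (1.67, 0.76 to 2.70) and the homing receptor Cxcr4 (1.55, 0.64 to 2.58) were higher as well, as were Arhgap45 (1.19, 0.50 to 1.94) and Vps37b (1.01, 0.54 to 1.49), while the dynein light chain gene Dynll1 (0.96, 0.39 to 1.56) stayed just under 2-fold. Of 12 B cell receptor and coreceptor genes measured, 3 were higher and 0 lower with a median of 0.58, and Cd79a, which carries the receptor signal, was at 0.26 (0.06 to 0.47).

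On the low side in B cells were Pnrc1, a nuclear receptor cofactor (−1.27, −1.64 to −0.89), the peroxiredoxin gene Prdx1 (−1.18, −1.76 to −0.61), Gapdh (−1.15, −1.52 to −0.80), Sh3glb1 (−1.06, −1.63 to −0.50) and Tsc22d3 (−1.02, −1.47 to −0.58), the gene for GILZ. The actin gene Actg1 (−0.86, −1.13 to −0.60), the noncoding Malat1 (−0.81, −0.97 to −0.65) and the elongation factor gene Eef2 (−0.75, −1.02 to −0.48) were under 2-fold lower. Junb was at −0.99 (−1.20 to −0.79), in the same direction as in the other 4 classes. The early response list, however, had 3 of 14 higher and 0 lower with a median of −0.15, close to all genes. Haemoglobin and other erythroid markers in B cells summed to 320 CPM after HU and 0 at 4-day reload, and their part was not tested.

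Across the 5 classes, MHC class I was a list with a median above that of all genes in each class, at 0.49 in monocytes, 0.56 in neutrophils, 0.78 in dendritic cells, 0.62 in T cells and 1.0002 in B cells. The interferon list stood above all genes in the 3 myeloid classes and below them in T cells, and in B cells 2 of its genes were measured. The early response list was below all genes in every class, by least in B cells. This did not hold in every subset. Within dendritic cells the list stood above all genes in the Retnla cluster, at 0.34 against 0.12. Within T cells it was close to all genes in the CD8 cluster. Genes of oxidative phosphorylation, the mitochondrial machinery of ATP synthesis, had medians between −0.18 and 0.28 with at most 1 gene past 2-fold in any class. Ribosomal protein genes lay between −0.16 and −0.08. The inflammatory list was below all genes in neutrophils, dendritic cells and T cells and above in monocytes, but in monocytes thinned to 1000 UMIs per cell it was at −0.04 against 0.01 for all genes, with 5 genes measured.

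**Figure D5:**
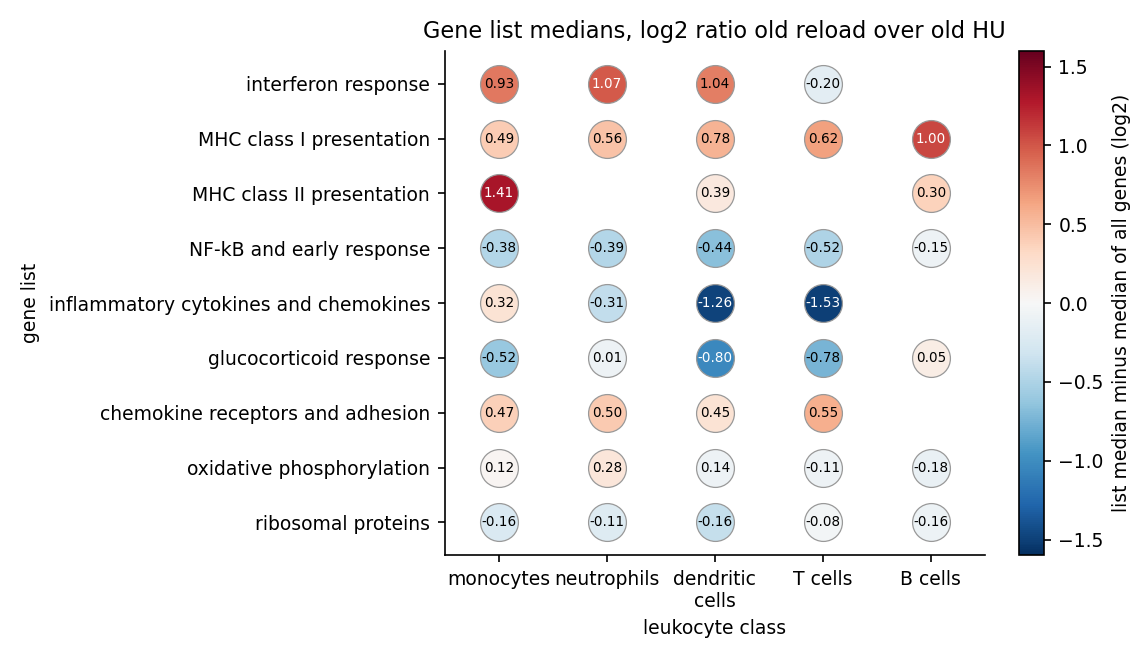
Median log2 ratio, old reload over old HU (printed in each circle), of 9 gene lists (y axis) in 5 leukocyte classes (x axis), colored by the list median minus the median of all genes measured in that class; a list is drawn where at least 5 of its genes were measured. MHC class I lies above all genes in every class and interferon response in the 3 myeloid classes, while NF-kB and early response lies below in every class. Subsets of the classes are not drawn, and the early response list was not below all genes in each of them.

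A few RNAs differed in nearly all classes at once. Lars2, a mitochondrial tRNA ligase gene, had ratios from 1.71 in neutrophils to 3.02 in T cells. Gm42418, which overlaps ribosomal RNA sequence, took 0.464% to 1.12% of UMIs after HU and 1.89% to 3.91% at 4-day reload over the 5 classes. AY036118, a long noncoding RNA also rich in ribosomal sequence, had ratios of 2.10 (1.28 to 3.03) in neutrophils and 1.604 (1.19 to 2.03) in T cells, and −0.06 in B cells. Without these 3 RNAs in the totals, T cells had 119 genes 2-fold higher and 72 lower. What set their levels was not tested. Ptprc, the gene for CD45, was at 445 and 635 CPM in monocytes, 788 and 1231 in neutrophils, 192 and 298 in dendritic cells, 287 and 426 in T cells, and 233 and 229 in B cells.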

How the data were processed

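Living CD45+ cells of soleus had been sequenced on the 10x platform. The authors aligned reads and counted UMIs per gene and barcode with Cell Ranger 3.1.0 on mm10, per the submitters' processing notes, and deposited unnormalized counts of the called barcodes. Reads are thus collapsed to molecules, and reads that fit several genes are not counted.

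From these counts, barcodes were kept by the limits given above (200 genes, 10% mitochondrial UMIs, 1 C1q UMI). The kept barcodes of all 6 libraries were clustered with Seurat 5.3.0 (R 4.3.3; 2000 variable genes, 30 principal components, resolution 0.8). A cluster was named for the class with most markers, where a marker counted if 25% or more of the cluster held it and its level was 1.5-fold that of the remaining cells (5 CPM added). At least 3 markers and no tie were required. A cluster stayed unnamed where its median UMIs were over 3 times below those of its library and its top 10 genes held no marker of the class. These thresholds were set after the clusters were seen. Likely doublets came from scrublet (scanpy 1.11.5), with the top 0.8% per 1000 barcodes marked and left in.

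UMIs were summed per class and library (Python 3.11.15, numpy 2.4.6, pandas 2.3.3, matplotlib 3.10.9). Ratios have exact intervals for 2 Poisson counts and shares exact binomial intervals (scipy 1.17.1), at 95%. A count of 0 was set to 3 UMIs. TMM factors came from edgeR 4.0.16. No test was run, since each group was 1 library. The ratios were checked on simulated data.

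The genes named are, per class, the 10 largest ratios each way among genes with at least 100 UMIs, found in at least 10% of cells where higher, with at most 25% of UMIs in 1 cell, at 0.5 times their library level or more, and no mitochondrial, ribosomal, haemoglobin or predicted genes. From each of 27 gene lists, the 4 members with most UMIs and those with the highest and lowest ratio were added. Some of these genes are not reported here. Genes of single cells (Camp, Ltf, Ngp, Jchain), Foxp3, Ptprc and Gm42418 were picked after their values were seen. The members and lists were chosen with earlier results of these data known.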

Additional observations from a re-analysis of the deposited data

Results flagged for a closer look

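The same comparison in young mice, also 1 library a side, went the other way for 4 shares and for 13 of the 127 named gene ratios that were measured in both ages. These are given because of that opposite direction. None of the differences between old and young was tested. The B cell share of leukocytes differed by 1.06 points in old and −0.0374 points in young mice, both with intervals that include 0. The CD4 T cell share differed by −7.46 points in old and 0.82 in young mice, and the CD8 T cell share by −2.66 and 1.21 points, but young T cells were only 42 after HU and 61 at 4-day reload. The cDC2 share differed by 5.78 points in old and −4.46 points in young mice, where cDC2 were 132 and 193 cells. Areg in T cells had a log2 ratio of −1.54 in old and 3.099 in young mice, on 81 and 16 UMIs in old and 3 and 53 UMIs in young cells. Cxcl9 in dendritic cells had −3.37 in old, on 44 and 14 UMIs, and 1.75 in young mice, on 3 and 53 UMIs. A single cell held 20 of the 44 old HU UMIs, and another held 23 of the 53 young reload UMIs. Ptgs2 in neutrophils had 1.83 in old, on 11 and 58 UMIs, and −1.15 in young mice, on 55 and 13 UMIs. Each of these 3 genes rests on few UMIs in at least 1 library. Intervals left out 0 in both ages for 7 of the 13 genes, which are these 3 and Icam1 in dendritic cells (−1.28 in old, 0.67 in young), Ifitm2 in monocytes (−0.32 and 0.70), and S100a8 (0.30 and −0.41) and S100a9 (0.17 and −0.48) in neutrophils. Young HU monocytes were only 12 cells. For the other 6 an interval held 0 in at least 1 age. They are Zfp36l1 in monocytes (−1.64 and 0.36), Marcksl1 (−1.10 and 0.44) and Il1b (0.05 and −0.27) in neutrophils, Trdc in T cells (1.57 and −0.28), and Actg1 (−0.86 and 0.35) and Eef2 (−0.75 and 0.05) in B cells.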

How the results depend on the processing

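No paired analysis was possible because each group held 1 library, and no library could be left out for the same reason. Of 55 class shares recomputed, 51 moved by less than their interval. A gate on marker genes in each cell in place of clusters gave a difference of 20.2 points for monocytes and −5.35 for neutrophils, and a minimum of 500 genes gave 9.61 points for neutrophils and −20.2 for T cells. Gamma delta T cells differed by −20.1 points of T cells when only the 2 old libraries were clustered. CD4 and CD8 T cells did not separate there or at resolution 0.4. The cause of these shifts was not tested.

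Counts of 2-fold genes followed how many genes were measured. With cells thinned to 1000 UMIs there were 68 higher and 27 lower in monocytes, 59 higher in neutrophils, 81 and 36 in dendritic cells, 33 and 46 in T cells and 23 and 7 in B cells. With a minimum of 20 UMIs there were 797 and 265 in monocytes, 293 and 89 in neutrophils, 1096 and 330 in dendritic cells, 388 and 240 in T cells and 215 and 77 in B cells. With 200 UMIs there were 80 and 23, 15 and 13, 173 and 45, 15 and 24, and 10 and 4 in the same order of classes. TMM scaling gave 66 higher and 146 lower in T cells, and a limit of 5% mitochondrial UMIs gave 27 higher in B cells.

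Thinning also moved list medians, to −0.042 for inflammatory genes and 2.25 for MHC class II in monocytes, to 0.088 for MHC class II and −0.59 for maturation genes in dendritic cells, and in T cells to −0.35 for naive and circulating genes and −0.51 for residency genes, whose median had been 0.22. With the same weight for each subset, the inflammatory median in dendritic cells was −0.97, and −0.41 at the finer clusters, weights that hold the mix of subsets equal in both libraries. Pattern receptor genes there had −0.10, and 0.17 and 0.35 under these weights. The other 166 list values stayed between the medians of the lower and upper counting bounds of their genes. Of the 170 gene ratios named, 137 were at least 2-fold, and all 137 kept their direction under every alternative where they were measured, while 99 stayed 2-fold. Depth limits B cells and neutrophils most, with 580 and 1154 genes measured against 5428 in dendritic cells.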

Other observations

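Among the other leukocytes, group 2-type innate lymphoid cells, led by Il5, Gata3 and Il13, were 131 of 868 cells (15.1%) after HU and 22 of 955 (2.30%) at 4-day reload. This difference of −12.8 points (−15.4 to −10.3) was close in size to that of T cells. In young mice these cells were 17.0% of 407 leukocytes after HU and 4.64% of 690 at 4-day reload. NK cells, led by Gzma and Ncr1, were 25 cells (2.88%) and 16 cells (1.68%), a difference of −1.20 points (−2.69 to 0.177). Mast cells, led by Mcpt4 and Cma1, were 18 cells (2.07%) and 3 cells (0.314%), and basophils 5 and 4 cells. Endothelial cells were 196 HU and 15 reload barcodes, fibroblasts 76 and 9, and mural cells 24 and 4, in libraries sorted for CD45.

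The same contrast was also read in the young pair, which has its own libraries. Monocytes were 2.95% of young leukocytes after HU and 13.8% at 4-day reload, dendritic cells 40.0% and 56.8%, T cells 10.3% and 8.84%, and neutrophils 22.4% and 7.10%. The median of the interferon list in young mice was 1.08 in monocytes (28 genes measured), 0.25 in neutrophils (6 genes) and 1.57 in dendritic cells (41 genes), against 0.20, 0.24 and 0.29 for all genes. Young monocytes were only 12 cells after HU, 5 of them classical, and 95 at 4-day reload, 80 of them classical. Of the named genes that were 2-fold in old mice and measured in young ones, 88 of 95 had the same direction and 63 were 2-fold there too. The same share was not taken over all genes that were 2-fold in old mice, so it does not set the named genes apart. Among all genes measured in young mice, 8.72% in B cells to 20.7% in monocytes were 2-fold higher at 4-day reload. The share 2-fold lower ran from 3.36% in B cells to 11.2% in neutrophils. The Retnla cluster of cDC2 held 130 of 163 young dendritic cells after HU and 50 of 392 at 4-day reload, and the Flt3 cluster 1 and 144. Old and young pairs do not share libraries, but each is 1 pool a side. Young and old HU share the first part of their library number, and so do young and old reload. The young pair therefore cannot tell a difference between library numbers apart from the comparison either.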
